A study of Solanum lycopersicum with 4 samples.

Results

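Among 34722 tomato (Solanum lycopersicum) genes whose RNA was sequenced from the shoot apical meristem, 56 were expressed in the vegetative meristem and stood at least 2-fold lower when the meristem passed to flowering. Members were all genes with at least 30 normalised counts in both vegetative libraries whose higher transitional value was at most 1/2 of the lower vegetative value. Of the 34722 genes, 16594 met the level minimum, so the members were 0.337% of those that could be chosen. The members were chosen by the measured levels of all 4 libraries, so their levels and falls are described without a test.

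All 4 libraries came from wild-type (WT) plants, taken as greenhouse seedlings of 2 to 12 days, and meristems were dissected after acetone fixation. The vegetative group was 2 libraries, replicates C and D, of meristems past the making of 6 leaves, and the transitional group was 2 libraries, replicates A and B, labelled as transitional meristem. The study compared these stages to find how the wild-type meristem changes at floral transition; its mutant, late termination (ltm), is not analysed here. The labels do not say how many plants a library held or whether replicates came from separate plants, so a p-value here covers no more than the spread of these libraries, which may be technical.

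The shoot apical meristem is a small dome of dividing cells that keeps a pool of stem cells at its tip and makes leaves on its flanks. At floral transition the dome enlarges and turns from making leaves to making an inflorescence, and in tomato the main shoot then ends in flowers while a side meristem continues the plant's growth. The change involves both the switching on of flowering regulators and the loss of transcripts of the vegetative phase. In whole dissected tips, fewer cells of a type and less RNA per cell cannot be told apart, and this holds for every fall described here.

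The libraries held 16141074 to 23043526 reads in genes, and 3 reads in a library came to between 0.130 and 0.186 CPM (counts scaled to a common library total), the limit that a count of 0 allows. No name, description or sequence could be attached to the identifiers, because none of the 34722 was found in the RefSeq gene table of tomato. A pair of members is therefore given by identifier, and the others by the chromosome that the identifier carries and by their levels. Identifiers recalled from published tomato nomenclature, which could not be checked here, served to look at the tissue. All 6 recalled meristem genes were detected, with levels that summed to 16942 (C) and 16057 (D) normalised counts at the vegetative stage and to 13562 (A) and 12594 (B) at the transition.

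The members ran over a wide range of starting levels. Their median level was 141 normalised counts in vegetative C and 105 in vegetative D, against 22.8 in transitional A and 23.8 in transitional B. The lowest and highest were 31.7 and 12699.8 in C, 30.3 and 12000.2 in D, 1.01 and 4336 in A, and 0 and 4502 in B. Summed over the 56 members, the levels were 31220.4 and 28181 in C and D, and 9484 and 9689 in A and B. That sum was 0.140% and 0.125% of the vegetative libraries' values and 0.0426% and 0.0433% of the transitional ones. A single member made up 40.7% to 46.5% of the sum in each library, and the 5 highest made up 67.2% to 78.3%.

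**Figure D1:**
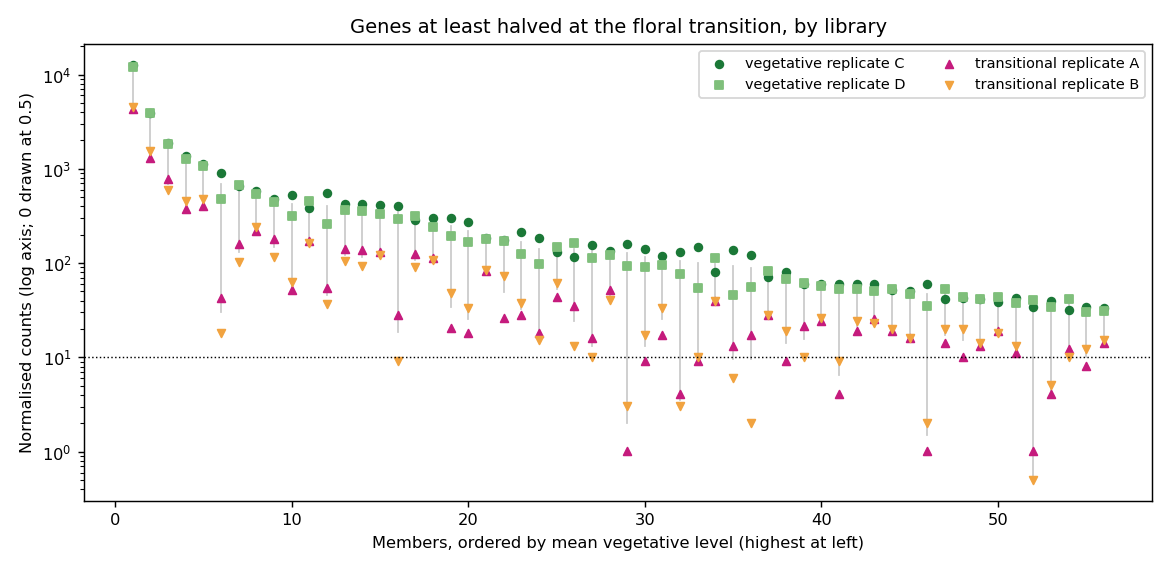
Normalised counts of the 56 members (log axis) in each of the 4 libraries, with members ordered by mean vegetative level, grey lines joining group means, and a dotted line at 10. The vegetative symbols lie above the transitional ones for every member, as the choice of members requires, and 6 members lie below 10 in both transitional libraries.

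The highest member, Solyc10g005080.2 on chromosome 10, had 12699.8 normalised counts in C and 12000.2 in D, against 4336 in A and 4502 in B. Its vegetative mean was 2.79 times its transitional mean, and the replicates of each stage lay close together. The next member by level, on chromosome 9, had 3907 in C and 3863 in D, against 1292 in A and 1546 in B. One on chromosome 3 had 1875 and 1843 at the vegetative stage and 789 and 603 at the transition. The other members that started above 1000 lay on chromosomes 2 and 3, with ratios of 3.17 and 2.49. All 5 of these abundant genes thus stayed well expressed at the transition, with their lowest transitional value at 376 normalised counts.

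Falls of 5-fold or more were found only among members that started below 1000 normalised counts. The median fall was largest at starting levels of 100 to 1000. Over all 56 members the ratio of the vegetative to the transitional mean ran from 2.19 to 74.6 with a median of 3.26. It was under 3 for 22 members, at least 5 for 22, at least 10 for 8 and at least 20 for 5. The 5 members with a vegetative mean of 1000 or more had ratios of 2.49 to 3.17, and none reached 5. The 28 members that started between 100 and 1000 had a median ratio of 5.11, and 15 of them reached 5. The 23 members that started below 100 had a median of 3.05, with 7 reaching 5 and a widest ratio of 74.6. Across the 56 members the rank correlation between ratio and vegetative mean was -0.0087, a description only, since both share the vegetative values.

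The members started lower than the genes they could be chosen from, with a median vegetative mean of 128 normalised counts against 553. Of the genes at 30 to under 100 normalised counts, 23 of 2091 were members (1.10%). Of those at 100 to under 1000, 28 of 9018 were (0.310%), and of those at 1000 or more, 5 of 5485 (0.0912%). The vegetative replicates also lay further apart in low genes: over all genes that could be chosen, C was more than 1.5 times D in 3.78%, 0.432% and 0.0365% at these 3 levels. The part of that spread in the members' levels was not tested.

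**Figure D2:**
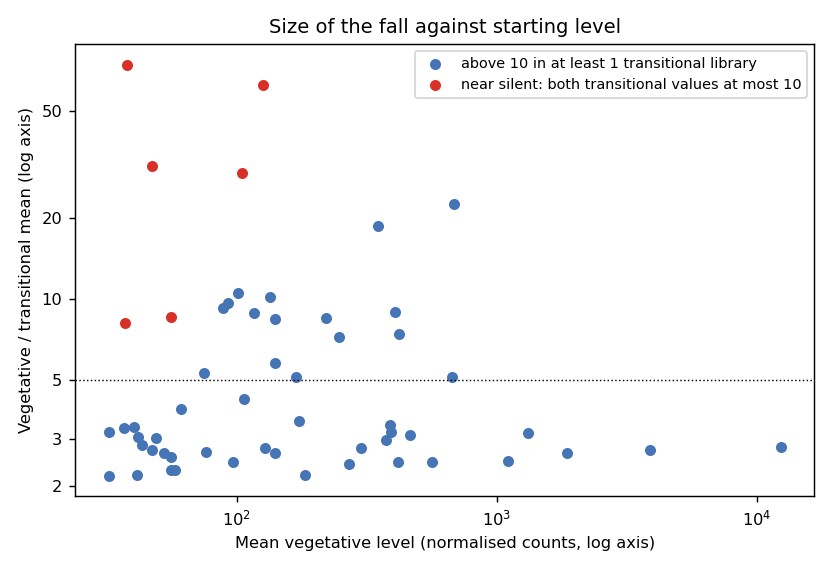
Ratio of vegetative to transitional mean against mean vegetative level (both log axes) for the 56 members, with a dotted line at a ratio of 5. Near-silent members (red, both transitional values at most 10) are 6, all with a vegetative mean of at most 126, and the members above 1000 lie between 2.49 and 3.17.

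The member with the largest ratio among those at 100 or more in both vegetative libraries was Solyc09g072750.2, on chromosome 9. Its level was 897 normalised counts in C and 473 in D, and 42.6 in A and 18.2 in B. The ratio of means was 22.5. The groups lay far apart, but C was 1.89 times D. A chromosome 1 member behaved much the same, with 406 in C, 291 in D, 28.4 in A and 9.11 in B, a ratio of 18.6. Among the members at 100 or more in both vegetative libraries, these were the steepest falls, and the next ratio was 10.2.

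Near silence, set at 10 normalised counts or fewer in both transitional libraries, was reached by 6 of the 56 members. Their vegetative means were 37.1 to 126 and their transitional means 0.507 to 6.58. Each rested on between 1 and 13 reads over both transitional libraries, so the ratios are given with exact 95% intervals that cover counting error only. The intervals allow neither for the choice of these genes by the same values nor for gaps between replicates. Near-silent members were on chromosome 1 (3 members), chromosome 3, chromosome 9 and chromosome 10.

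The most abundant near-silent member, on chromosome 10, had 160.04 normalised counts in C and 92.9 in D, but 1.01 in A and 3.04 in B. Its pooled read ratio was 59.6, with an interval of 22.9 to 221. On chromosome 1, one member went from 132 and 76.3 to 4.05 and 3.04, a ratio of 28.1 with an interval of 13.4 to 70.9. Both genes were well above the level minimum in each vegetative library and within 5 normalised counts of 0 in each transitional one.

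A chromosome 3 member went from 59.3 and 35.2 normalised counts to 1.01 and 2.02, which was 79 reads against 3 and a ratio of 29.8 (interval 9.82 to 147). A chromosome 1 member went from 34.5 and 41.1 to 1.01 and 0, which was 67 reads against 1 and a ratio of 75.7 (interval 13.1 to 3036). These intervals are wide, since so few transitional reads set the ratios, and both limits carry the choice of the genes by low transitional values. The remaining pair had smaller ratios, 8.44 (interval 4.71 to 16.4) on chromosome 1 and 8.04 (interval 3.98 to 18.4) on chromosome 9. A further 7 members were at 10 or fewer in 1 transitional library, 4 in A and 3 in B.

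Members near the choice rule were close calls. The nearest member inside it, on chromosome 3, had 38.6 in C, 44.02 in D, 19.3 in A and 18.2 in B, so that its nearest libraries differed 2.01-fold. The nearest gene outside it, on chromosome 2, had 266 in C, 277 in D, 135 in A and 133 in B, a nearest difference of 1.98-fold. There were 11 members with a nearest difference of 2 to 2.2, and 25 genes between 1.8 and 2 just missed. At the other end 22 members differed at least 3-fold between their nearest libraries, and 14 at least 5-fold.

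The replicates of the vegetative stage lay further apart in the members with the larger ratios. For the 34 members with a ratio under 5, the level in C was a median of 1.05 times that in D, and 0 of them had C more than 1.5 times D. For the 22 members with a ratio of at least 5, the median was 1.65, C was above D in 19, and C was more than 1.5 times D in 14. The division at 5 was made after the values were seen, and the ratio itself contains C and D. Among all 16594 genes at 30 or more in both vegetative libraries, C was above D in 49.6% and more than 1.5 times D in 0.723%. At starting levels of 100 to under 1000, C was more than 1.5 times D in 11 of the 28 members and in 0.432% of all genes there. At 30 to under 100 it was so in 3 of 23 members, beside 3.78% of all genes there. At 1000 and over it was so in 0 of 5, beside 0.0365%. D was more than 1.5 times C in 0 of the 56 members, and in 0.934% of those 16594 genes.

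**Figure D3:**
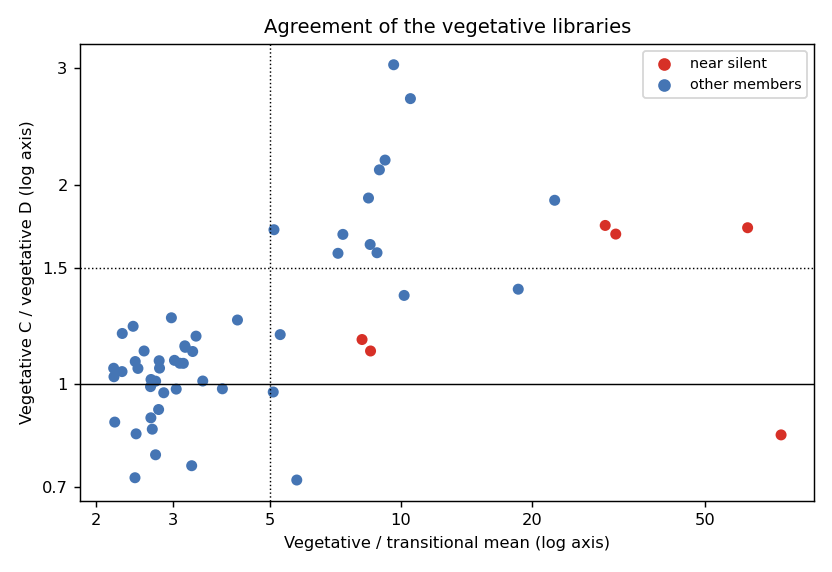
Level in vegetative C divided by that in vegetative D, against the ratio of vegetative to transitional mean (both log axes), for the 56 members. Lines mark equal levels, a C to D ratio of 1.5 and a fall of 5-fold, and all 14 members with C more than 1.5 times D lie to the right of the 5-fold line.

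The widest gap was that of a chromosome 7 member, with 139 normalised counts in C and 45.97 in D against 13.2 in A and 6.07 in B. A chromosome 9 member had 552 in C, 262 in D, 54.7 in A and 36.4 in B. In both genes D still lay several times above both transitional libraries. The fall of the 22 steepest members was therefore larger when read from C, with a median of 11.4, than when read from D, with a median of 6.60. Read against the transitional mean, 21 of the 56 members reached 5-fold from C alone and 19 from D alone.

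Recalled lists for other tissue, for handling and for the meristem were read for the same gap. Of 23 tested photosynthesis genes, which mark expanding leaf tissue, C was above D in 4. Levels summed over all 24 photosynthesis identifiers found were 15283 in C and 17858 in D. Of 9 tested wound and jasmonate genes, which respond to damage, C was above D in 3, with sums of 7803 and 8227. Of the 6 meristem genes, C was above D in 6. The part of the tissue dissected in the gap among the members was not tested.

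Between the transitional libraries the members spread in both directions. A was above B in 27 of the 56, beside 52.4% of the genes at 30 or more in both vegetative libraries. A was more than 1.5 times B in 11 and B more than 1.5 times A in 10, against 2.51% and 2.16% of the genes at 30 or more in both vegetative libraries. The members stood low in the transitional libraries, where a few reads move such a ratio: in the near-silent group the counts were between 0 and 9 reads per library. The rank correlation across members was 0.951 for the vegetative libraries and 0.887 for the transitional ones, which describes the order of levels only.

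The members lay on all 12 chromosomes, unevenly. Chromosome 3 held 13 and chromosome 9 held 11, which was 0.741% and 0.910% of the genes there that could be chosen. Chromosome 1 held 9 (0.418%), chromosome 2 held 5 (0.279%) and chromosome 10 held 4 (0.370%). Each of the other 7 held 1 to 3 members, with the lowest shares on chromosome 8 (1 of 1203) and chromosome 12 (1 of 1047). Chromosome 0, which collects unplaced genes, held 0 of 83. No test of the spread over chromosomes was made, and neighbouring members are not independent of each other. By order of identifiers, the first 5th of the chromosomes held 18 members (0.516% of those that could be chosen) and the 4th held 17 (0.466%), against 0.251%, 0.178% and 0.240% in the others, in order.

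**Figure D4:**
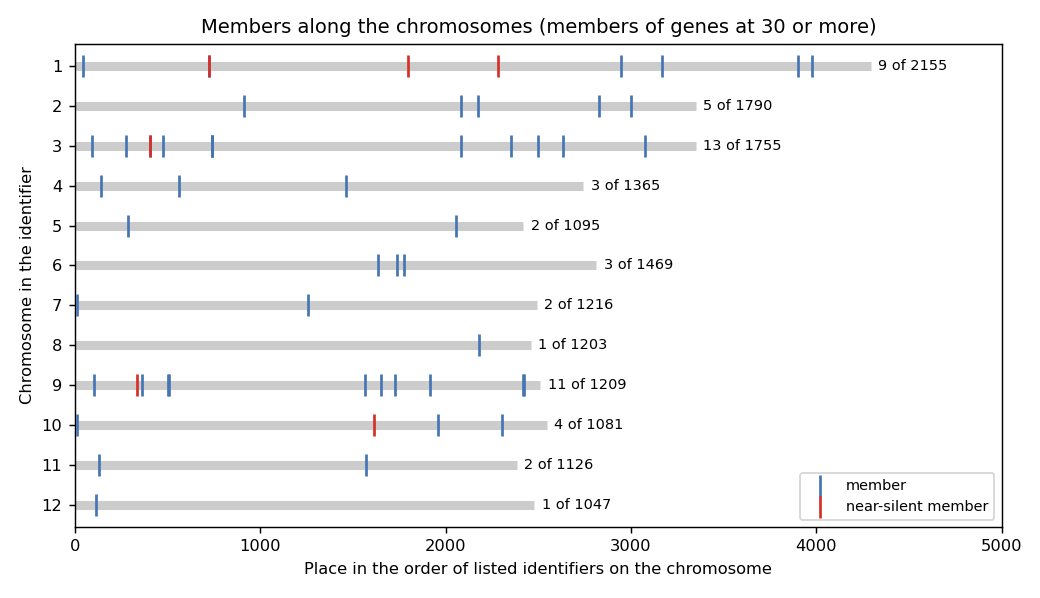
Place of the 56 members (ticks; red for near-silent) in the order of listed identifiers on each of the 12 chromosomes, with the number of members of all genes at 30 or more in both vegetative libraries at right. Chromosomes 3 and 9 carry 13 and 11 members, and adjacent members overlap as 1 tick at this scale.

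Some members were next-door neighbours. Of the 56, 7 had another member as the next listed identifier (12.5%), against 47 of the 16538 other genes at the level minimum that had a member next to them (0.284%). Within 5 listed identifiers the figures were 9 members (16.1%) and 1.51% of the others. These 9 formed 4 runs, 1 on chromosome 1, 2 on chromosome 3 and 1 on chromosome 9. Near-identical neighbours can share reads, and the sources used here do not say how the authors counted such copies. Whether these neighbours are such copies was not tested.

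On chromosome 1 the steep member at 406 and 291 normalised counts in C and D was followed directly by the near-silent member at 34.5 and 41.1. At the transition the first stood at 28.4 in A and 9.11 in B, and the second at 1.01 and 0. On chromosome 3 a near-silent member at 59.3 and 35.2 in C and D was followed by one at 528 and 314, which stood at 51.7 and 62.7 at the transition. The near-silent gene of each run rested on few transitional reads, 1 on chromosome 1 and 3 on chromosome 3.

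The longest run was 3 consecutive identifiers on chromosome 3. The first stood at 148 and 54.8 normalised counts in C and D and at 9.12 and 10.1 in A and B. The second went from 155 and 113 to 16.2 and 10.1, and the last from 132 and 149 to 43.6 and 61.7. Their ratios were 10.5, 10.2 and 2.67, so the last kept more of its level than the others. C was above D in the first and the second of them and below it in the last.

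The run on chromosome 9 was a pair 4 places apart. One had 175 in C, 173 in D, 26.4 in A and 72.8 in B. The other had 302 in C, 192 in D, 20.3 in A and 48.6 in B. In both, B was above A. Of the 3 genes between them, 1 had no read, and the other 2 did not follow the pair: they stood at 2.76 and 4.14 in C, 56.7 and 45.97 in D, 20.3 and 24.3 in A, and 26.3 and 39.5 in B. In these intervening genes C was the lowest library, the reverse of the second gene of the pair.

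The other neighbours of members stood close to no change, with a slight lean to lower values. Among 104 genes that were next to a member without being one, 30 had no read in any library and 47 were at 30 or more in both vegetative libraries. The change of these 47, as log2 of the ratio of transitional to vegetative means with 1 added to each, had a median of -0.07 and quartiles of -0.21 and 0.03. Over all 16594 genes at that level the median was -0.0025 and the quartiles were -0.12 and 0.13. The limma fit called 2 of the 47 lower and 1 higher, beside 1.19% and 2.70% of all genes tested. Whether the neighbours differ from all genes was not tested.

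Limma was fitted over the 19607 genes averaging 5 normalised counts or more, and 45 of the 56 members were called lower (Benjamini-Hochberg adjusted p under 0.05, two-sided), beside 1.19% of all genes tested. The same values chose the members, so nothing is read from this count. Of the 11 members not called, 10 started below 100 normalised counts, and their ratios were between 2.19 and 9.20. The calls did not hold with either vegetative replicate, C or D, left out, but most held with either transitional replicate left out. Each of these fits leaves a single library in a group, and the cause of the difference was not tested. Against the transitional mean, the median ratio of the members was 3.41 from C alone and 3.09 from D alone. edgeR's quasi-likelihood test on the reads called 44 of the members, beside 1.06% of all genes, and DESeq2 called 41, beside 1.62%.

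The same rule with the stages exchanged picked 245 genes that stood at least 2-fold higher at the transition, which was 1.46% of the 16731 that could be chosen. Of those, 48 (19.6%) had started at 10 or fewer normalised counts in both vegetative libraries, beside 6 of 56 (10.7%) that ended there among the members. Within 5 listed identifiers of a member there were 3 of the 245. Whether these shares differ was not tested.

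Of the recalled lists, 1 photosynthesis identifier was a member and no meristem or wound identifier was. That member, on chromosome 12, had 134 normalised counts in C, 123 in D, 51.7 in A and 40.5 in B. Limma called 3 of the 23 photosynthesis genes tested lower, this member among them, and 0 higher, with a median log2 change of -0.03. The share called lower was 1.19% over all genes. All 23 were higher in transitional A than in B. Summed over the 24 photosynthesis identifiers found, the levels were 17374 in A and 11328 in B, beside 15283 in C and 17858 in D. Of the 6 meristem genes 2 were called lower, beside the same 1.19%, and 0 higher, with a median log2 change of -0.24. Of the 9 wound and jasmonate genes 6 were called higher and 0 lower, beside 2.70% of all genes called higher. The median log2 change over all 19607 genes tested was 0.0052. The part of handling in the members' fall was not tested.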

How the data were processed

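The file the authors deposited holds a normalised signal, the reads of a gene divided by a size factor of the library. HTSeq 0.6.1p1, DESeq2 1.6.3 and TopHat2 2.0.10 appear, with no role, in the submitters' processing notes; no genome build is named in the sources used here. Of the values in every library, 100% were whole multiples of 1 step (relative tolerance 1e-06), so reads could be recovered. The vegetative replicates are C and D in their titles, used here, but A and B in their descriptions.

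Members, lists and tests were chosen with earlier results of these data known. The rule was applied to the deposited values in Python 3.11.15. limma 3.58.1 (trend, R 4.3.3) was fitted on log2(value + 1) of genes with a mean of at least 5. Group was the only term, with 2 residual degrees of freedom. The code was checked on simulated data that gave every gene the same spread between replicates beyond counting. That check does not cover the uneven spread of these libraries. On recovered reads edgeR 4.0.16 called 485 genes higher and 207 lower, and DESeq2 1.42.0 called 597 and 317, against 529 and 233 by limma. The design named edgeR for counts and limma for normalised values.

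The genes given by identifier were the member with the highest vegetative mean and the one with the largest ratio among members at 100 or more in both vegetative libraries and above 0 in both transitional ones. Order along a chromosome is that of the numbers in the identifiers listed. Lists were matched on 14 characters. Alternatives were other scalings, level minimums, factors, pseudocounts and filters, and leaving out each library.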

Additional observations from a re-analysis of the deposited data

How the results depend on the processing

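With all 4 libraries, DESeq2 size factors gave 56 members, all shared, and library size scaling gave 55. Minimums of 20 and 50 in place of 30 gave 66 and 43 members, a factor of 1.5 gave 186, a factor of 3 gave 22, and group means in place of the nearest libraries gave 117. Near-silent members numbered 15 with a minimum of 20, 3 with a minimum of 50, 4 at 5 or fewer normalised counts and 20 at 20 or fewer. A rule with fewer libraries is easier to meet: leaving out each library in turn gave 88 to 115 members, with all 56 among them each time, 9 to 15 near-silent members, median ratios of 2.75 to 3.16, and 300 to 504 genes of the opposite rule. Without vegetative replicate D the near-silent members were 15, without transitional replicate A 12 and without B 11. Limma called 0 to 43 members lower with 1 library left out, beside 0 to 478 of all 19607 genes, and 1 with no filter on low genes, the one gene called lower of 24021, where the cause was not tested. Under the other settings 41 to 49 members were called lower, beside 207 to 317 of all 17533 to 19607 genes tested. The same values chose the members, so nothing is read from this range. Depth limits the near-silent ratios, which rest on few reads. No paired analysis was possible because the titles give the groups no shared replicate letter.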
